A study of Saccharomyces cerevisiae with 4 samples.

Results

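The genes examined here are 45 genes of budding yeast, Saccharomyces cerevisiae, that make fatty acids, phospholipids, sphingolipids and triacylglycerol, or that control or feed those routes. They were chosen by name from knowledge of the pathways, and each was read from the probe set that the platform annotation assigns to that gene alone, taking the brightest where a gene had several. All 45 had such a probe set, among 5656 genes that a probe set reads alone. SUR4 was matched through its current R64 name, ELO3. The arrays fall into 2 groups of 2, each array with RNA from its own culture in the rich medium YPD: hst3hst4 mutant cultures of strain YCB600 and wild-type cultures of strain YCB617, both of the FY background. Hst3 and Hst4 are sirtuins, enzymes that use NAD to remove the acetyl group from lysine 56 of histone H3, and the study asked how the mutant cultures differ from the wild-type ones in gene expression. The sources used here state neither how the genes were deleted nor the mating type of either strain, and each genotype is represented by a single named strain.

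Yeast builds saturated acyl chains in the cytosol from malonyl-CoA, desaturates and elongates them at the endoplasmic reticulum, and joins them to glycerol or to long-chain bases. Phospholipids come from phosphatidic acid by the CDP-diacylglycerol route, or from free choline and ethanolamine by the Kennedy route. The CDP-diacylglycerol route makes phosphatidylserine, decarboxylates it to phosphatidylethanolamine and methylates that in steps to phosphatidylcholine. Many of these genes answer to inositol: the activators Ino2 and Ino4 bind their promoters, and the repressor Opi1, held at the endoplasmic reticulum by phosphatidic acid, enters the nucleus when inositol is plentiful.

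Before the lipid genes are read, the labels need a caution. HST3 read 0.4 and 0.5 in MAS5 signal units on the arrays labelled hst3hst4, against 13.7 and 25.3 on those labelled wild-type. HST4 went the other way, with 38.0 and 39.3 on the arrays labelled hst3hst4 against 3.6 and 0.9 on those labelled wild-type. Directions below are therefore those of the labels. The deposited signals had been scaled to a common trimmed mean on each array, and the 9 bacterial and phage hybridisation controls averaged a log2 difference of -0.36 between the hst3hst4 and the wild-type arrays. Scaling on those controls instead shifted the median of all genes to 0.33 on the log2 scale and turned 15 of the 45 lipid genes from negative to positive: ACC1, FAS2, SUR4, FAA1, ITR2, CDS1, PIS1, CKI1, CPT1, CRD1, LCB1, LCB2, LAC1, CSG2 and LRO1. The 3′ to 5′ signal ratio of the TATA-binding protein gene, a measure of RNA integrity and priming, was 3.82 and 3.70 on the hst3hst4 arrays against 4.64 and 5.20 on the wild-type arrays. That of SRB4, a mediator subunit gene, ran the other way (2.34 and 1.90 against 1.87 and 1.63), and that of the actin gene ACT1 overlapped (1.73 and 1.78 against 1.70 and 1.88). Markers of a cells, 5 of 5 measured, summed to 3555 and 3749 against 4412 and 4276, those of alpha cells, 4 of 4, to 157 and 178 against 85.8 and 134, and those of sporulation, 4 of 4 with SPO11 at most 0.6, to 59.3 and 63.7 against 51.3 and 30.8. Inside each list the markers differed. Of the a-cell markers MFA1 overlapped, while MFA2, STE2, STE6 and BAR1 were lower on both hst3hst4 arrays. STE6 passed in limma (log2 fold change -1.05, adjusted p = 0.0284). Among the alpha-cell markers MF(ALPHA)2 was lower, and MF(ALPHA)1, STE3 and SAG1 were higher. For sporulation IME1 and SPO11 overlapped, and SPS1 and NDT80 were higher. The part of these differences in the results below was not tested.

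No lipid gene passed the comparison of the strains on the probe set that represented it, and few differed by much. Of the 45 genes, 43 lay above the filter on dim probe sets and were tested, and 0 passed an adjusted p of 0.05 in limma, where 2.73% of all genes tested passed. At that rate about 1 call would be found among 43 genes, so the 0 does not set them apart. At an unadjusted p under 0.05 there were 11, 5 higher and 6 lower on the hst3hst4 arrays, or 25.6% of the 43, where the share of all genes tested was 19.2%, made up of 10.2% higher and 8.97% lower. The difference between the strains was within 1.5-fold for 41 of the 45, or 91.1%, against 85.2% of all genes. For 37 genes the 95% interval of the log2 fold change lay within a 2-fold change either way, and for 32 it held 0. In RNA from a whole culture, fewer cells of a kind and less RNA per cell cannot be told apart.

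Array by array, more lipid genes were lower than higher on the arrays labelled hst3hst4 on the deposited scale, and more were higher on the scaling to hybridisation controls. On the deposited scale both hst3hst4 arrays lay below both wild-type arrays for 17 genes (37.8%), and above them for 10 (22.2%). The corresponding shares of all 5656 genes were 26.3% and 25.4%. The remaining 18 overlapped, so 60.0% of the lipid genes did not overlap where 51.7% of all genes did not. The median log2 fold change of the 45 genes was -0.09 and that of all genes -0.004. Over the 4 mutant against wild-type array pairs the lipid median ran from -0.11 to -0.04 and that of all genes from -0.07 to 0.05. Inside the mutant strain, replicate 1 minus replicate 2 gave -0.02 for the lipid genes and -0.10 for all genes, and inside wild type -0.02 and -0.04. On the scaling to hybridisation controls 3 lipid genes were lower and 22 higher, where 3.39% and 51.8% of all genes were, and the lipid median was 0.27 against 0.33 for all genes.

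**Figure D1:**
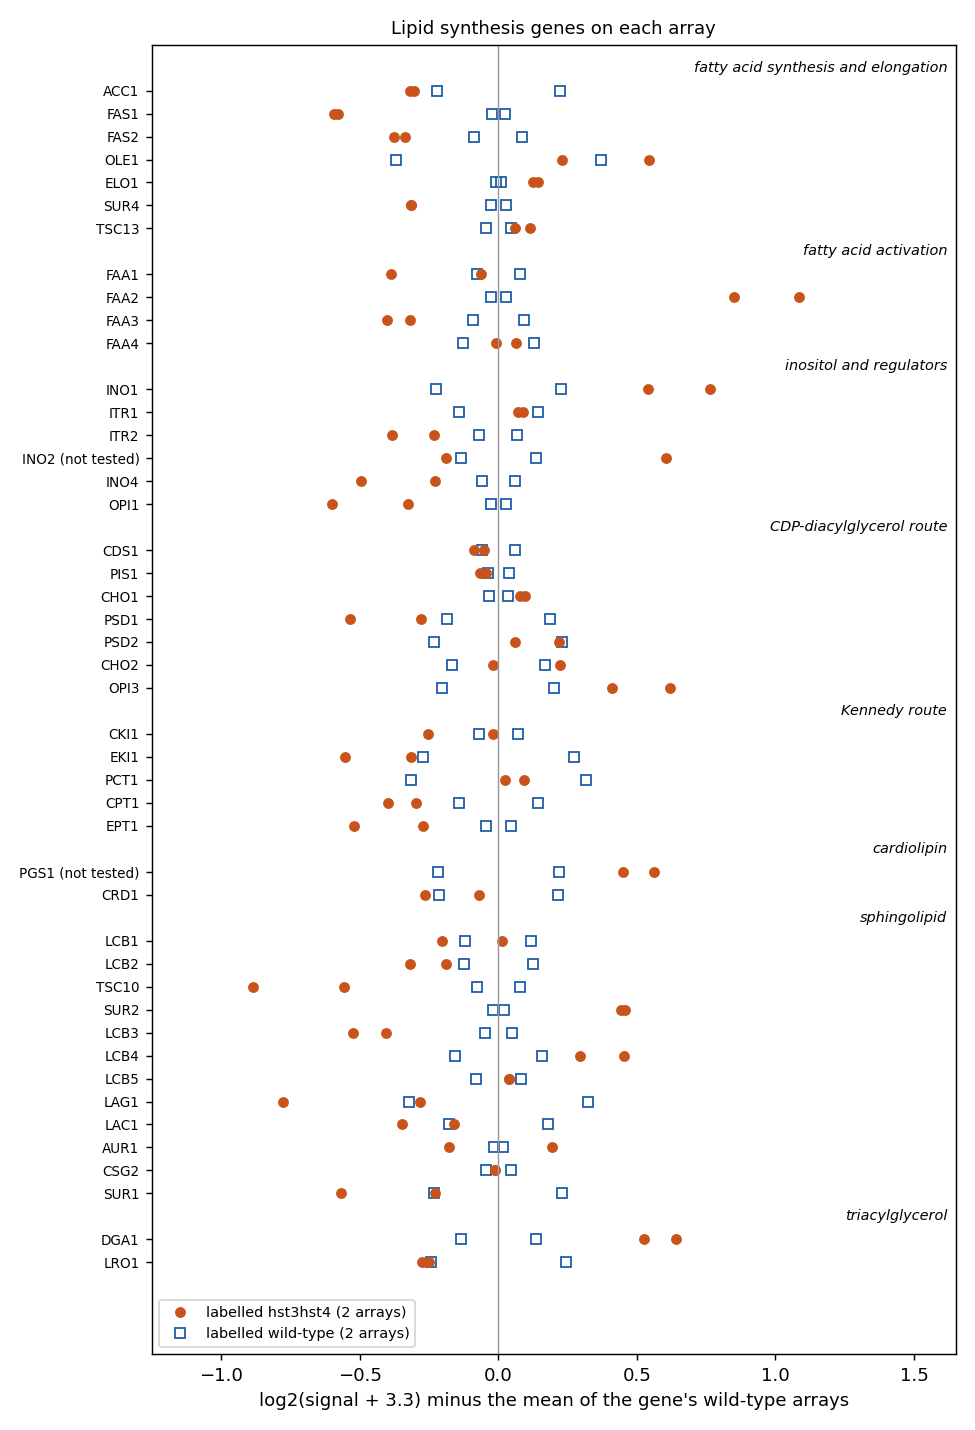
Signal of each of the 45 lipid genes on each array, as log2(signal + 3.3) minus the mean of that gene's wild-type arrays, on the deposited scale; filled circles are the arrays labelled hst3hst4 and open squares those labelled wild-type. FAS1, SUR4, SUR2 and LCB3 show the strains apart with distances inside a strain of at most 0.12, while OLE1, LAG1 and PCT1 differ widely between the wild-type arrays. When arrays are scaled on hybridisation controls, 15 of the genes left of 0 move to its right, and the median of all genes moves to 0.33.

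The fatty acid synthase genes had lower signals on the arrays labelled hst3hst4 on the deposited scale. On the scaling to hybridisation controls FAS1 stood at -0.23 and FAS2 at 0.004, or -0.56 and -0.33 relative to the median of all genes. FAS1 encodes the beta subunit of the synthase and FAS2 the alpha subunit. On its brightest probe set FAS1 had signals of 925 and 934 on the hst3hst4 arrays, against 1374 and 1421 on the wild-type arrays. The strains were clearly separate and each strain's arrays nearly equal. The log2 fold change was -0.59 (SE 0.13; adjusted p in limma = 0.0611). It passed after quantile normalization (adjusted p = 0.0421) and with 1 probe set per gene in the fit (0.0435). Without wild-type replicate 1 it was at -0.61. FAS2 had 2291 and 2352 against 2802 and 3160, with a log2 fold change of -0.36 (SE 0.13, adjusted p = 0.174). These arrays did not overlap either, although the wild-type cultures differed by more than the mutant ones.

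FAS1 and FAS2 each have 8 probe sets of their own, which read the same RNA at places that the sources used here do not give, so they are repeated readings and not replicates. All 8 FAS1 probe sets were lower on both hst3hst4 arrays than on both wild-type arrays, as were 26.3% of all genes. The 8 had log2 fold changes from -0.85 to -0.27 and a median of -0.58. The weakest, -0.27 (SE 0.14, adjusted p in limma = 0.342), came from the next brightest probe set after that given above. Of the 8, 6 had an unadjusted p under 0.05 in limma, as did 19.2% of all genes tested. Only 1, the dimmest by mean log2 signal, passed the limma test over all probe sets, where 0.539% of all probe sets passed as lower. That probe set read 114 and 103 on the hst3hst4 arrays against 211 and 185 on the wild-type arrays (log2 fold change -0.85, SE 0.17, adjusted p = 0.0492). The call stood at the edge of the threshold. It held after quantile normalization, with a pseudocount of 12.9, with the lowest 40% left out, with the replicate block and without wild-type replicate 1 or 2 (adjusted p from 0.0214 to 0.0493), settings that called 2 or 3 of the 8 probe sets. It was lost in the others, where the adjusted p was 0.0512 after median centring, 0.0515 with a pseudocount of 1, 0.0951 with no filter, 0.131 without the variance trend, 0.205 on the scaling to hybridisation controls, and 0.285 and 0.333 without hst3hst4 replicates 1 and 2. The 8 FAS2 probe sets all had log2 fold changes below 0, from -0.90 to -0.03, with a median of -0.39. Of these, 7 had arrays that did not overlap. The next brightest FAS2 probe set after that given above stood at -0.16 (SE 0.14, adjusted p in limma = 0.555). None of the FAS2 probe sets passed in limma, and 5 had an unadjusted p under 0.05, where 19.2% of all genes tested did. On the scaling to hybridisation controls 7 FAS1 and 4 FAS2 probe sets remained below 0, with medians of -0.22 and -0.03 where all genes stood at 0.33.

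**Figure D2:**
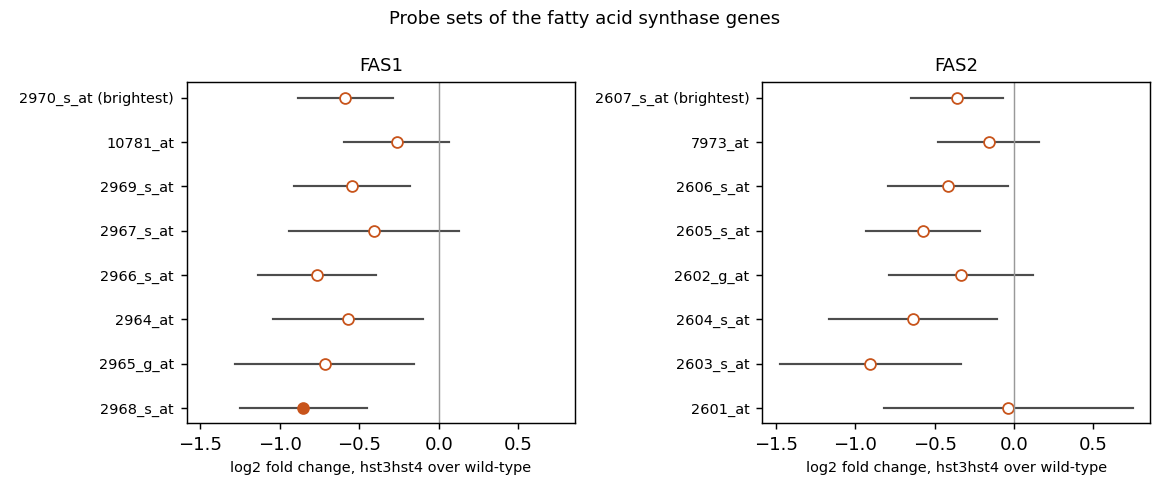
Log2 fold change (arrays labelled hst3hst4 over wild-type) of the 8 probe sets of FAS1 and the 8 of FAS2, brightest at the top, with 95% intervals from limma; the filled point is the 1 probe set that passed. All 16 points lie below 0 on the deposited scale, and 11 do on the scaling to hybridisation controls.

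The gene models of ACC1, FAS1 and FAS2 run over 6702, 6156 and 5664 bases in R64, the longest of the lipid genes. Over the 83 genes of at least 5000 bases the median log2 fold change was -0.08, against 0.05 over the 2227 genes shorter than 1000 bases. The rank correlation (Spearman rho) of length and log2 fold change was -0.094 over all genes and -0.013 over the lipid genes. The part of length in the values of ACC1, FAS1 and FAS2 was not tested. ACC1, the acetyl-CoA carboxylase that makes malonyl-CoA for the synthase, had signals of 1006 and 996 on the hst3hst4 arrays against 1067 and 1451 on the wild-type arrays. Its arrays just failed to overlap, and the log2 fold change of -0.31 (SE 0.17, adjusted p = 0.348) was -0.53 without wild-type replicate 1. Leaving out wild-type replicate 2 gave -0.09, and the scaling to hybridisation controls 0.05.

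Past the synthase, SUR4 alone of OLE1, SUR4, ELO1 and TSC13 had lower signals on both hst3hst4 arrays, on the deposited scale. Among the further lipid genes described below, 17 belong to fatty acid synthesis and elongation. By array 5 of these were lower, 2 higher and 10 overlapping. The lower ones included the elongation genes IFA38 (log2 fold change -0.34, SE 0.14) and PHS1 (-0.24, SE 0.15), and neither passed in limma. OLE1, the only fatty acid desaturase gene of this yeast, had 1369 and 1101 on the hst3hst4 arrays against 1214 and 726 on the wild-type arrays, which overlap. Its log2 fold change was 0.39 (SE 0.24, adjusted p = 0.414), or 0.02 without wild-type replicate 2, and 0.75 when replicate 1 of the wild type was left out, where it passed (adjusted p = 0.0159). SUR4, the elongase that makes the longest acyl chains, had 827 and 827 against 1010 and 1049, a log2 fold change of -0.31 (SE 0.13, adjusted p = 0.234) on the deposited scale and of 0.05 on the scaling to hybridisation controls. ELO1, the elongase of medium-length chains, had 790 and 800 against 719 and 728 (log2 fold change 0.13, SE 0.13). TSC13, the enoyl reductase of the elongation cycle, had 352 and 365 against 348 and 327 (0.09, SE 0.15). The 7 genes of synthesis and elongation had a median log2 fold change of -0.31. That median was 0.05 when scaled on hybridisation controls, where all genes stood at 0.33, and -0.09 without wild-type replicate 2. By array 4 of the 7 were lower, 2 higher and 1 overlapping, where 26.3% of all genes were lower and 25.4% higher.

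Among the 4 acyl-CoA synthetases, which activate free fatty acids, FAA2 had the highest fold. FAA2, the peroxisomal enzyme for medium-length chains, had signals of 15.8 and 19.2 on the hst3hst4 arrays against 7.5 and 7.1 on the wild-type arrays. The strains did not overlap, and the fold was 1.96 on the log2(signal + 3.3) scale, which understates the change of so dim a probe set (log2 fold change 0.97, SE 0.33; adjusted p in limma = 0.171). FAA2 and INO1 passed on the scaling to hybridisation controls (adjusted p = 0.0357 and 0.0378), where 14.4% of all genes tested were called. FAA2 was the only lipid gene above the 95th percentile of all genes, 0.92. Its wild-type signals lay below the filter signal of 8.97, and only the hst3hst4 arrays brought its mean above the filter. The p-values of FAA2 are therefore not taken as evidence of a difference. FAA2 overlaps the gene BUD25 in R64, and the labels do not say which strand the probes read. FAA3 had 21.0 and 19.6 against 25.1 and 29.0 (log2 fold change -0.36, SE 0.25, adjusted p = 0.454). The pair that takes up most fatty acid from the medium overlapped between strains: FAA1 had 234 and 294 against 324 and 291 (-0.22, SE 0.18), and FAA4 had 292 and 307 against 321 and 268 (0.03, SE 0.16).

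**Figure D3:**
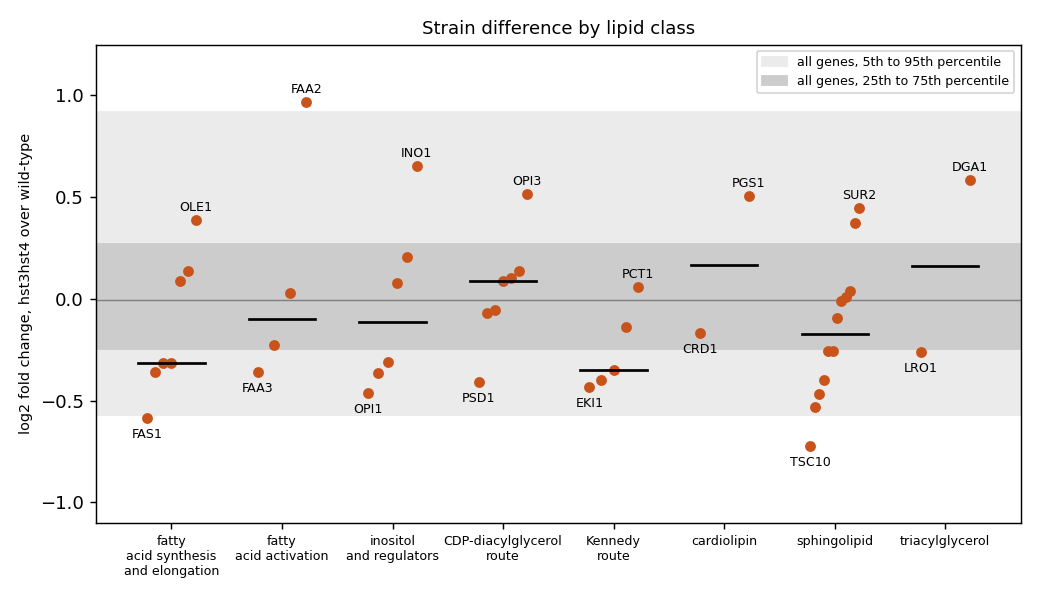
Log2 fold change (arrays labelled hst3hst4 over wild-type, deposited scale) of each lipid gene by class, with the class median as a black bar and the lowest and highest gene named; the grey bands are the middle ranges of all 5656 genes. TSC10 (-0.72) and FAS1 (-0.59) lie below the 5th percentile of all genes (-0.57), FAA2 (0.97) lies above the 95th (0.92), and 18 genes lie between the 25th and 75th. The medians of the fatty acid synthesis, fatty acid activation, inositol, Kennedy and sphingolipid classes are below 0 here. On the scaling to hybridisation controls these medians are above 0 but below the median of all genes, 0.33.

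The inositol circuit showed its enzyme and its repressor in opposite directions, neither past the adjusted threshold. INO1 encodes the inositol-3-phosphate synthase. It had signals of 31.0 and 36.8 on the hst3hst4 arrays against 16.9 and 24.3 on the wild-type arrays, or 1.57-fold (log2 fold change 0.65, SE 0.26, adjusted p = 0.224). OPI1, the repressor, had 48.3 and 59.2 against 73.6 and 76.4 (log2 fold change -0.46, SE 0.19, adjusted p = 0.234). Neither gene's arrays overlapped, and both directions were kept on the scaling to hybridisation controls, at 0.97 and -0.12. Of the activators, INO4 had 26.0 and 32.0 against 39.8 and 36.4, without overlap (log2 fold change -0.36, SE 0.22, adjusted p = 0.406). INO2 lay below the filter and was not tested, at 4.6 and 10.4 against 4.9 and 6.6. ITR1, the main inositol transporter, had 514 and 508 against 438 and 533 (0.08, SE 0.16), and its paralog ITR2 had 224 and 249 against 279 and 307 (-0.31, SE 0.16, adjusted p = 0.325; 0.05 on the scaling to hybridisation controls).

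The 11 lipid genes best known as Ino2 and Ino4 targets, a list made after the values were seen, did not share a direction. INO1, CHO1 and OPI3 were higher and ACC1, FAS1, FAS2 and PSD1 lower on both hst3hst4 arrays, and ITR1, CHO2, CDS1 and CKI1 overlapped. By array, 25.4% of all genes were higher and 26.3% lower. The median log2 fold change of the 11 was -0.07, with a range from -0.59 to 0.65.

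In the CDP-diacylglycerol route 4 of 7 genes, CDS1, PIS1, PSD2 and CHO2, differed between strains by less than the wild-type arrays did from each other, and OPI3 had the highest fold. CDS1 makes CDP-diacylglycerol. Its signals were 86.6 and 88.9 on the hst3hst4 arrays against 96.4 and 88.4 on the wild-type arrays (log2 fold change -0.07, SE 0.17). PIS1, the phosphatidylinositol synthase, had 695 and 705 against 748 and 708 (-0.06, SE 0.14). CHO1, the phosphatidylserine synthase, had 294 and 291 against 282 and 269 (0.09, SE 0.15). For PIS1 and CHO1 the 95% intervals, -0.37 to 0.26 and -0.26 to 0.43, did not reach a 1.5-fold change in either direction.

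The decarboxylases and methyltransferases that follow differed from each other. PSD1, the mitochondrial phosphatidylserine decarboxylase, had 215 and 179 on the hst3hst4 arrays against 229 and 298 on the wild-type arrays (log2 fold change -0.41, SE 0.19, adjusted p = 0.282). PSD2, the decarboxylase of the endomembranes, had 38.2 and 43.0 against 30.6 and 43.4, which overlap (0.14, SE 0.24). CHO2, which adds the first methyl group to phosphatidylethanolamine, had 471 and 399 against 359 and 454, also overlapping (0.10, SE 0.18). OPI3, which adds the later ones, had 254 and 294 against 219 and 165, a fold of 1.43 without overlap (log2 fold change 0.52, SE 0.19, adjusted p = 0.195). OPI3 was at 0.31 without wild-type replicate 2 and at 0.72 without wild-type replicate 1. It passed on the scaling to hybridisation controls (0.87, adjusted p = 0.00628). The 7 genes of the route had a median of 0.09, which turned to -0.02 without hst3hst4 replicate 1 or wild-type replicate 1. When scaled on hybridisation controls it was 0.44, where all genes stood at 0.33.

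In the Kennedy route, from free choline and ethanolamine, 0 of the 5 genes had an unadjusted p under 0.05 in limma. Of all genes tested 19.2% did, so the 0 does not set these 5 apart. On the deposited scale CPT1, EPT1 and EKI1 had lower signals on both hst3hst4 arrays, as did 26.3% of all genes; on the scaling to hybridisation controls CPT1 turned to 0.01, and EPT1 and EKI1 stayed below 0. CPT1, the cholinephosphotransferase, had signals of 297 and 319 on the hst3hst4 arrays against 355 and 434 on the wild-type arrays (log2 fold change -0.35, SE 0.17, adjusted p = 0.285). EPT1, the ethanolaminephosphotransferase, had 45.5 and 37.7 against 57.4 and 53.8 (-0.40, SE 0.20, adjusted p = 0.320), and its dimmer probe set gave -0.32 with overlapping arrays. EKI1, the ethanolamine kinase, had 24.1 and 19.9 against 24.9 and 37.9 (-0.44, SE 0.28). These 3 did not overlap between strains. The choline kinase CKI1, at 70.0 and 82.9 against 80.0 and 88.5 (-0.14, SE 0.19), and PCT1, which makes CDP-choline, at 33.6 and 31.9 against 39.8 and 24.5 (0.06, SE 0.27), overlapped. The class median was -0.35, with array pairs from -0.44 to -0.22. It became 0.01 on the scaling to hybridisation controls, where all genes stood at 0.33, and -0.21 without wild-type replicate 2. Without that array EKI1 was at -0.16.

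The cardiolipin genes, for the signature lipid of the mitochondrial inner membrane, were dim. PGS1, which makes phosphatidylglycerolphosphate, lay below the filter and was not tested, at 10.2 and 11.3 on the hst3hst4 arrays against 8.2 and 5.2 on the wild-type arrays. Its other probe set, at 13.5 and 12.5 against 10.1 and 1.4, was not tested either. CRD1, the cardiolipin synthase, had 30.9 and 35.8 against 44.4 and 32.1, which overlap (log2 fold change -0.17, SE 0.24, adjusted p = 0.736).

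Sphingolipid synthesis held both the lowest log2 fold change of the lipid genes and a gene in the opposite direction, at steps that lie close together. LCB1 and LCB2 encode serine palmitoyltransferase, which starts the route. LCB1 had 994 and 855 on the hst3hst4 arrays against 906 and 1070 on the wild-type arrays (log2 fold change -0.09, SE 0.15), and LCB2 had 776 and 710 against 812 and 967 (-0.25, SE 0.15). TSC10, the reductase of the second step, had 148 and 117 against 208 and 232. These arrays were well apart, with a fold of 0.61 (log2 fold change -0.72, SE 0.18, adjusted p in limma = 0.0903), and TSC10 was at -0.80 without wild-type replicate 1. On the scaling to hybridisation controls it remained lower, at -0.37.

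SUR2, the hydroxylase that turns dihydrosphingosine into phytosphingosine, had 291 and 293 on the hst3hst4 arrays against 216 and 210 on the wild-type arrays. Replicates were nearly equal in both strains, and the log2 fold change of 0.45 (SE 0.15, adjusted p = 0.166) ran from 0.43 to 0.47 when each array was left out in turn. It passed on the scaling to hybridisation controls (0.81, adjusted p = 0.0119). LCB3, a phosphatase of long-chain base phosphates, had 84.9 and 92.6 against 120 and 128 (-0.47, SE 0.17, adjusted p = 0.193), without overlap. The kinases that work against it did not share that direction: LCB4 had 25.3 and 28.6 against 22.7 and 17.6 (0.37, SE 0.26, adjusted p = 0.458), and LCB5 had 98.6 and 98.5 against 90.5 and 102, which overlap (0.04, SE 0.17).

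The later sphingolipid genes all overlapped between strains. The ceramide synthase subunits LAG1 and LAC1 had 27.7 and 18.7 against 43.9 and 26.9 (log2 fold change -0.53, SE 0.30) and 118 and 135 against 171 and 133 (-0.25, SE 0.19). AUR1, which joins inositol phosphate to ceramide, had 416 and 321 on the hst3hst4 arrays against 367 and 359 on the wild-type arrays (0.01, SE 0.17). SUR1 and CSG2, subunits of the enzyme that adds mannose to that product, had 46.2 and 59.3 against 82.8 and 59.2 (-0.40, SE 0.23) and 227 and 227 against 236 and 222 (-0.01, SE 0.15). For CSG2 the 95% interval was -0.37 to 0.35. By array, 3 of the 12 sphingolipid genes were lower, 2 higher and 7 overlapping, where 26.3% of all genes were lower and 25.4% higher. The median of the 12 was -0.17, or -0.09 without wild-type replicate 2. On the scaling to hybridisation controls it was 0.19, where all genes stood at 0.33.

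Both routes to triacylglycerol, the storage lipid of lipid droplets, were measured. DGA1, the acyltransferase that uses acyl-CoA, had signals of 124 and 114 on the hst3hst4 arrays against 86.2 and 71.0 on the wild-type arrays. The strains did not overlap (log2 fold change 0.58, SE 0.18, adjusted p = 0.145), and DGA1 was at 0.72 without wild-type replicate 1. It passed on the scaling to hybridisation controls (0.93, adjusted p = 0.0087). LRO1, the acyltransferase that takes its acyl chain from a phospholipid, had 159 and 156 against 160 and 225, a log2 fold change of -0.26 (SE 0.20, adjusted p = 0.502) that was -0.02 without wild-type replicate 2.

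**Figure D4:**
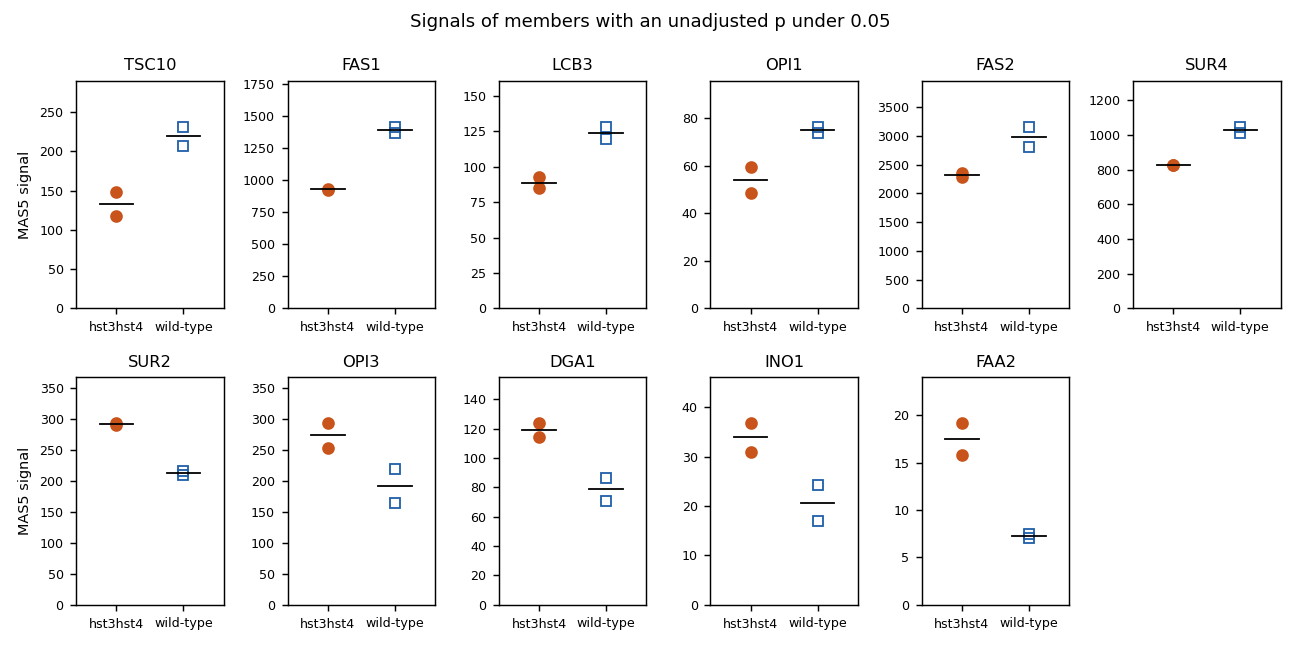
MAS5 signals of the 11 lipid genes with an unadjusted p under 0.05, ordered by log2 fold change; points are arrays (labelled hst3hst4 left, wild-type right), bars are means, and each axis starts at 0. In none of the 11 do the strains overlap, and none passed the adjusted threshold. FAS2 and SUR4, lower here, are at 0.004 and 0.05 on the scaling to hybridisation controls, where the median of all genes is 0.33.

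Differences between cultures of one strain were of the same order as those between strains. The median distance between the wild-type arrays of a lipid gene was 0.24 on the log2 scale and that between its hst3hst4 arrays 0.15, against a median absolute log2 fold change of 0.31. In 23 of the 45 genes at least 1 of these distances exceeded the strain difference, and in 22 the wild-type distance did. The widest were OLE1 at 0.74, LAG1 at 0.64 and PCT1 at 0.63 between wild-type arrays, and INO2 at 0.79 between hst3hst4 arrays. For these 4 genes the strains' arrays overlapped.

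Beyond the 45, a list of 73 further genes of the same pathways, drawn up from textbook knowledge and all measured, gave no call either. Of the 72 tested, 0 passed in limma, where 2.73% of all genes passed, and 11 (15.3%, against 19.2% of all genes) had an unadjusted p under 0.05, 4 higher and 7 lower. By array, 18 were higher, 23 lower and 32 overlapping, so 56.2% did not overlap where 51.7% of all genes did not, and the median log2 fold change was -0.06. YEH1, a steryl ester hydrolase, had signals of 86.5 and 88.2 on the hst3hst4 arrays against 45.1 and 53.6 on the wild-type arrays (log2 fold change 0.79, SE 0.19, adjusted p = 0.0783). CLD1, the lipase that trims cardiolipin, had 19.7 and 19.7 against 9.2 and 10.5 (0.81, SE 0.30, adjusted p = 0.198). PLB1, a phospholipase B, had 537 and 509 against 387 and 299 (0.62, SE 0.17, adjusted p = 0.111).

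The lowest of that list touch both the glycerolipid and the sphingolipid routes. ALE1, an acyltransferase for lysophospholipids, had 81.9 and 96.7 on the hst3hst4 arrays against 144 and 140 on the wild-type arrays (log2 fold change -0.65, SE 0.18, adjusted p = 0.104). ORM2, a regulator that restrains serine palmitoyltransferase, had 513 and 657 against 1092 and 750 (-0.64, SE 0.21, adjusted p = 0.163). Without wild-type replicate 2 it was at -0.91. SCS2, the endoplasmic reticulum protein that tethers Opi1, had 896 and 810 against 1157 and 1434 (-0.59, SE 0.16, adjusted p = 0.0964). Without wild-type replicate 1 it was at -0.75. YEH1 was at 0.91 without wild-type replicate 2, and PLB1 at 0.80 without wild-type replicate 1. Both passed on the scaling to hybridisation controls, YEH1 at 1.13 (adjusted p = 0.00172) and PLB1 at 0.98 (adjusted p = 0.000683).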

How the data were processed

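Total RNA was extracted with hot acid phenol, amplified in a single round from a T7 oligo-dT primer and labelled with biotin for Affymetrix arrays of one colour, per the labels' protocols. Each deposited value is the intensity of a probe set on a linear scale. The submitters' processing notes name GCOS 1.4 and MAS5, and the scale target is not given in the sources used here. No detection calls or probe positions were used. Of 9335 probe sets, 60 controls were left out; 6504 had 1 gene, 328 had several and 2443 none listed, with symbols updated to R64.

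Signals were taken as log2(signal + 3.3), 3.3 being their 10th percentile; the lowest 20% by mean were left out and 7420 probe sets, holding 5271 genes, were tested in limma 3.58.1 (R 4.3.3) with a variance trend, two-sided, with Benjamini-Hochberg adjustment over all of them and a threshold of 0.05. The method was tested on simulated data. With 2 arrays per strain an exact permutation test cannot go below p = 0.333. The array number limits precision. The p-values cover the spread between cultures of these strains, with variances partly borrowed across probe sets (2 residual and 5.75 prior degrees of freedom). They do not cover differences between strains of the same genotype. Every member is named by class; values on each array are given for all of them, and of further lipid genes for the 3 highest and 3 lowest tested. The members and lists were chosen with earlier results of these data known.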

Additional observations from a re-analysis of the deposited data

How the results depend on the processing

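The number of lipid genes called was 0 on the settings reported. It was 1, FAS1, after quantile normalization (adjusted p = 0.0421) and with 1 probe set per gene before the fit (0.0435). It was 6 on the scaling to hybridisation controls, all higher (DGA1, FAA2, INO1, OLE1, OPI3 and SUR2), where 14.4% of all genes tested were called. Leaving out each array in turn gave 0 to 6, the 6 without wild-type replicate 1 (DGA1, OLE1 and OPI3 higher; ACC1, FAS1 and TSC10 lower), where 10.7% of all genes were called. In these fits the strain left with 1 array is assumed to vary like the other. The further lipid genes called numbered 5 on the scaling to hybridisation controls (ISC1, PLB1, SKN1, TSC3 and YEH1, all higher) and 0 to 2 with an array left out, and 0 otherwise. The median log2 fold change of the 45 genes was -0.14 after median centring, 0.27 on the scaling to hybridisation controls, and -0.19 to -0.062 with an array left out. The count of all probe sets called, 196, was 1168 on the scaling to hybridisation controls (1140 higher and 28 lower, against 156 and 40), 36 with no filter, 38 without the trend and 4 to 865 with an array left out. With the replicate number as a block it was 343 and the lipid count remained 0; the deviations of same-numbered arrays correlated with r = -0.041, so the numbers were not taken to pair cultures. The FAS1 probe sets called, 1 of 8, numbered 0 to 3 over all alternatives. Apart from these, the counts of lipid genes, of further lipid genes and of all probe sets called, the count of lipid genes without overlap and the lipid median kept within 1.5 times or within the spread between replicates under the other alternatives, which were pseudocounts of 1 and 12.9, a filter of 40% and the mean of a gene's probe sets.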
